A study of Homo sapiens with 8 samples.

Results

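Nucleotides for DNA and RNA are made from small precursors or recovered from nucleosides, and the enzymes that do this are often abundant in dividing cancer cells. The 9 genes described here code for such enzymes: DCK, TK1, TYMS, IMPDH1, IMPDH2, GMPS, RRM1, RRM2 and CAD. They were listed by name because mutant p53 has been reported in other cancers to act on genes of this pathway. They are 9 of the 25435 genes in the table, and 9 of 9 passed the filter on low counts, which 13213 genes passed in all. The question was whether their mRNA levels differed in gastric cancer cells given mutant p53.

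De novo synthesis builds the purine and pyrimidine rings step by step, whereas salvage phosphorylates nucleosides taken up or set free by the cell. Ribonucleotide reductase then turns ribonucleotides into deoxyribonucleotides, and thymidylate synthase supplies the base that only DNA uses. Expression of several of these enzymes, TK1, TYMS and RRM2 among them, is tied to S phase of the cell cycle. In breast cancer cells, mutant p53 has been reported to raise genes of this pathway together with the transcription factor ETS2.

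The cells were HGC27, an established line from a human gastric carcinoma that the labels describe as having no p53, grown in alpha-MEM. They overexpressed p53 R175H, p53 R248Q or p53 R273H, or GFP as the control, with 2 mRNA libraries in each of the 4 groups. R175H is known to disturb the fold of the DNA-binding domain, and R248Q and R273H replace residues that contact DNA. All groups share 1 cell line, no source used here gives the promoter or vector behind the overexpression, and the series title speaks of knockout and knockdown where the sample labels give overexpression. Nothing in the labels says that the replicates of a group were separate cultures, so each p-value measures only the spread between these libraries.

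Total counts were 6800463 to 9017777 in R175H, 11599907 to 11659301 in R248Q, 11287251 to 11788035 in R273H and 8928928 to 9769342 in GFP. Of 6 epithelial markers 1 reached a mean of 1 CPM (counts scaled to library size), of 6 mesenchymal markers 5 did, and 5 of 7 gastric differentiation markers had no count in any library. Within the mutant pairs the chi-square per degree of freedom was 1.21 to 1.6, against 5.72 between the 2 GFP libraries. In GFP replicate 1, transcripts of at least 8000 nt deviated from their mean by a median of -0.29 on the log2 scale, and in the other 7 libraries by -0.04 to 0.15. CAD, at 7265 nt, and GMPS, at 8751 nt, have the longest transcripts of the members.

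Promoters of 4 members are shown, those of CAD and IMPDH1 because these genes passed the test against GFP, and those of DCK and RRM2 because they hold the short ETS motif. Each is the 250 bases before the start site on the gene's own strand, 5′ to 3′, from RefSeq on GRCh38.p14, a later build than the hg19 of the counts. They lie at chr2:27217119-27217368 (plus strand) for CAD, chr7:128409983-128410232 (minus) for IMPDH1, chr4:70993399-70993648 (plus) for DCK and chr2:10122318-10122567 (plus) for the upstream of 2 RRM2 entries. Capitals mark matches to the motifs searched.
CAD: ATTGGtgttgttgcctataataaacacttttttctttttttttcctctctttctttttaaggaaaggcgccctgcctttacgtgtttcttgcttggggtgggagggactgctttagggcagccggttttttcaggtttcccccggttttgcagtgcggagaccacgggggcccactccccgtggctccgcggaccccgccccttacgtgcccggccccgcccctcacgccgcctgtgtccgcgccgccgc
IMPDH1: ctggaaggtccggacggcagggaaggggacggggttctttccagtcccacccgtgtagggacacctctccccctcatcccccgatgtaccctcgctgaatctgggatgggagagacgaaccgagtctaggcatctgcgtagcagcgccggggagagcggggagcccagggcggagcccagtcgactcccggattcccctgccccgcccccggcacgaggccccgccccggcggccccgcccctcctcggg
DCK: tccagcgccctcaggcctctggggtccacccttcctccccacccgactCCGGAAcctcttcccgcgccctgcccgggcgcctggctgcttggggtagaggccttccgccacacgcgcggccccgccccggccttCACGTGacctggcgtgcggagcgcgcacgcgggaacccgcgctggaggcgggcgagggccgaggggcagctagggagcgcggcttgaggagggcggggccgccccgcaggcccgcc
RRM2: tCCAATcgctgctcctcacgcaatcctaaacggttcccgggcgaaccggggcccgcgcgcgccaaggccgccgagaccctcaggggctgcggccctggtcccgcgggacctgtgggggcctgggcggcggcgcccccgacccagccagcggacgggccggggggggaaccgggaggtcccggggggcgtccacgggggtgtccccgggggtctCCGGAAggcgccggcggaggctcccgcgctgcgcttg

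The motifs were searched on both strands in the entries of 8 members, since IMPDH2 had no entry. The short ETS motif CCGGAA was in the promoters of 2 members, DCK and RRM2, and in 14.5% of all 35116 promoters, while the longer CCGGAAGT was in no member and in 3.42% of promoters. Within the bases before the start site, the E-box CACGTG, which MYC binds, was in DCK alone among the members and in 6.34% of promoters. Of the 3 E2F motifs, TTTCCCGC was in TYMS and in 1.39% of promoters, while TTTGGCGC (0.55% of promoters) and TTTCGCGC (0.439%) were in no member. CCAAT was in 4 members, CAD, RRM1, RRM2 and TK1, and in 32.0% of promoters. The RRM2 entry not shown held it at -123, -93 and -66 from its start site. In CAD it was read as the reverse complement ATTGG at the far end of the window, and none of these letters was in the IMPDH1 window. A match is a description of the letters only. No entry was searched after its start site, so the absence of a motif holds only for the bases before it.

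All 9 genes were expressed, at 42.6 CPM or more in every library and with at least 342 reads behind each value. Per length of transcript, IMPDH2 was the most abundant member in all 4 groups, followed by TYMS, TK1, RRM1 and RRM2. IMPDH2 averaged 328 ± 15 CPM per kb in R175H, 288 ± 1.5 CPM per kb in R248Q, 301 ± 0.046 CPM per kb in R273H and 309 ± 23 CPM per kb in GFP (SD, n = 2 each). The neighbouring TYMS averaged 257 ± 4.7 CPM per kb in R175H and 276 ± 20 CPM per kb in GFP. The libraries of IMPDH2 and TYMS did not overlap within any group. RRM1 and RRM2, neighbours in the order, overlapped in R273H, at 79.7 to 81.3 and 79.0 to 81.1 CPM per kb.

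CAD and IMPDH1 changed places at ranks 6 and 7 of the 9 members. CAD averaged 51.6 ± 0.12 CPM per kb in R175H, 60.2 ± 0.61 CPM per kb in R248Q and 55.1 ± 0.81 CPM per kb in R273H, each above IMPDH1, and 47.2 ± 6.8 CPM per kb in GFP, below IMPDH1 at 55.9 ± 1.6 CPM per kb (SD, n = 2 each). In R273H the libraries of both genes overlapped. DCK stood eighth, at 17.5 ± 1.5 CPM per kb in R175H and 16.2 ± 0.46 CPM per kb in GFP. GMPS stood ninth, at 13.5 ± 0.97 CPM per kb in R175H and 13.8 ± 0.59 CPM per kb in GFP, but its place depends on the transcript taken, 8751 nt here against 2024 nt for another annotated form.

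**Figure D1:**
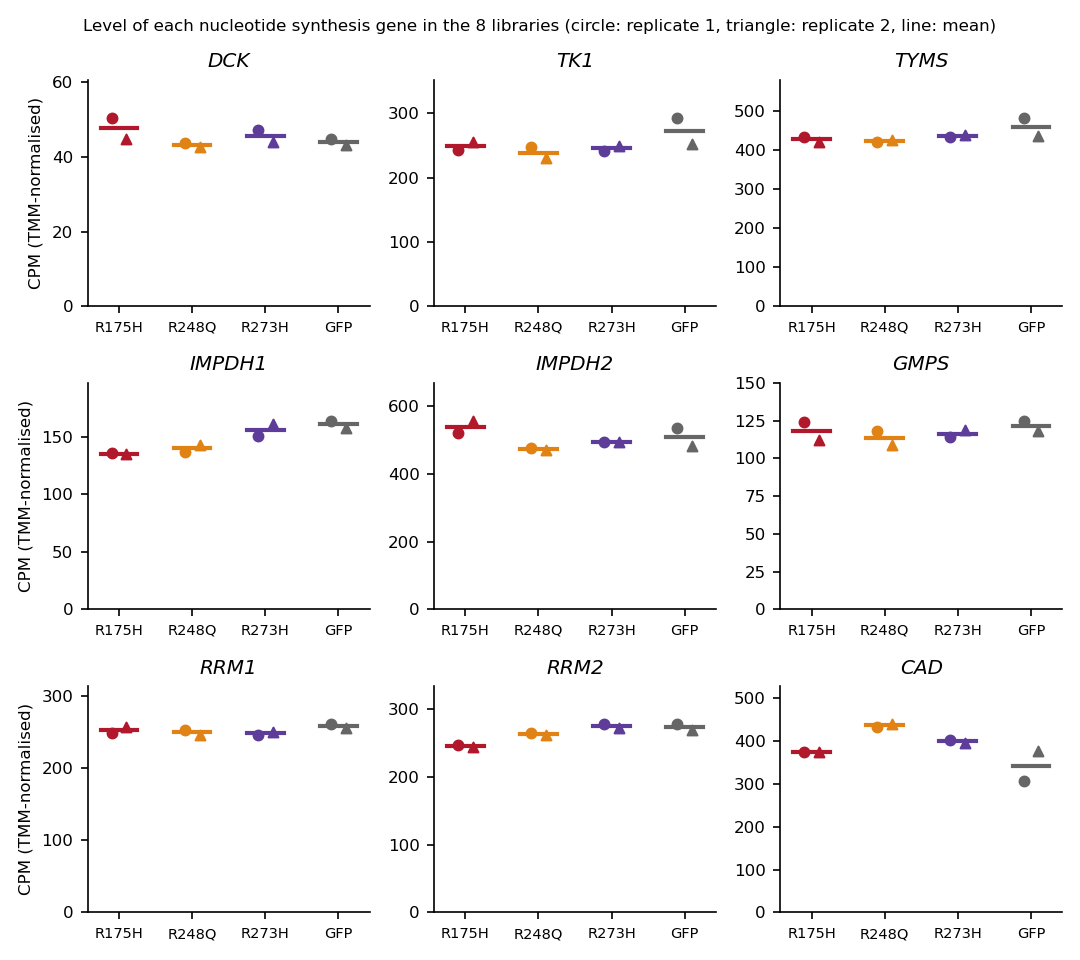
Level of each of the 9 genes in TMM-normalised CPM (y axis, from 0) in the R175H, R248Q, R273H and GFP libraries, with a circle for replicate 1, a triangle for replicate 2 and a line for the group mean. The spread over all libraries is small, with a ratio of highest to lowest of 1.06 for RRM1 and 1.43 for CAD, whose lowest value is 308 CPM in GFP replicate 1.

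Against GFP, few of the members passed the test. In R175H 1 of 9 passed, IMPDH1, which was lower, and in R248Q 1 of 9 passed, CAD, which was higher. In R273H 0 of 9 passed. Beside these counts, 11.0% of all tested genes passed in R175H (6.39% higher and 4.59% lower), 6.32% in R248Q (4.88% higher and 1.44% lower) and 1.01% in R273H (0.757% higher and 0.250% lower). A share of 1 in 9 is thus near the background in R175H and R248Q. The test throughout was edgeR's quasi-likelihood test, adjusted over all genes by Benjamini-Hochberg and called at 0.05. The median log2 fold change of the 9 members was -0.04 in R175H, -0.09 in R248Q and -0.05 in R273H, beside 0.01, -0.01 and 0 over all tested genes. The 3 comparisons share the same GFP libraries.

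For the comparison with 0 calls, R273H, DESeq2 and limma-voom also called 0 members, and at an unadjusted p under 0.05 edgeR had CAD higher and TK1 lower. Over the 9 members, the 95% intervals of the log2 fold change reached no farther from 0 than 0.38 in R175H, 0.51 in R248Q and 0.38 in R273H. Fewer cells that express a gene and less of its mRNA per cell cannot be told apart in bulk RNA.

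**Figure D2:**
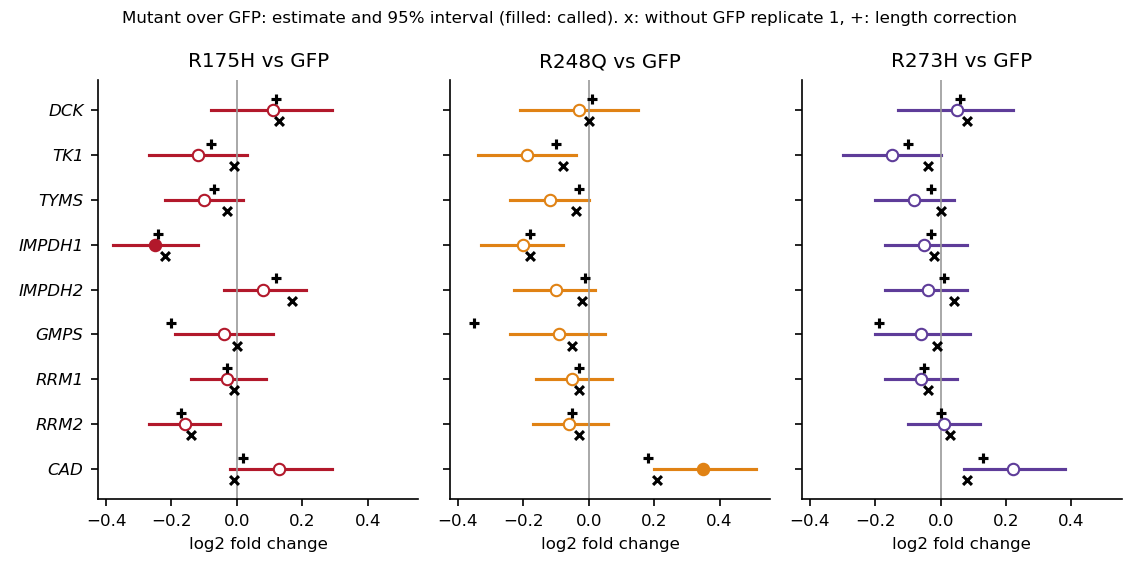
Log2 fold change (x axis) of each member in R175H, R248Q and R273H over GFP, with 95% intervals, filled points for genes that passed the test, crosses for the value without GFP replicate 1 and plus signs for the value after a correction for transcript length. CAD in R248Q is at 0.35, at 0.21 without GFP replicate 1 and at 0.18 after the correction.

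The salvage kinases DCK and TK1 add the first phosphate to deoxynucleosides, DCK mainly to deoxycytidine and TK1 to thymidine. DCK read 50.5 and 44.9 CPM in R175H, 43.7 and 42.6 CPM in R248Q, 47.1 and 43.9 CPM in R273H, and 44.9 and 43.1 CPM in GFP. Its R248Q and R273H values overlapped with those of GFP, and 1 R175H library was highest. The log2 fold changes over GFP were 0.11 ± 0.09 in R175H, -0.03 ± 0.08 in R248Q and 0.05 ± 0.08 (SE) in R273H, and the lowest adjusted p was 0.47.

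TK1 read 243.3 and 256.2 CPM in R175H, 247.7 and 229.5 CPM in R248Q, 241.9 and 248.8 CPM in R273H, and 292.5 and 251.5 CPM in GFP. GFP replicate 1 was the highest of the 8 libraries, and all R248Q and R273H libraries lay below both GFP libraries. The log2 fold change was -0.12 in R175H (95% interval -0.27 to 0.03, adjusted p = 0.28), -0.19 in R248Q (-0.34 to -0.04, adjusted p = 0.12) and -0.15 in R273H (-0.3 to 0, adjusted p = 0.38), from edgeR. None passed the test. The values depended on the GFP library that was kept. Without GFP replicate 1 they were -0.01, -0.08 and -0.04 in R175H, R248Q and R273H, and without GFP replicate 2 they were -0.23, -0.29 and -0.25. Each such fit leaves 1 GFP library and takes its spread from the mutant pairs, so only effect sizes are given. TK1 mRNA per length was 8.04 to 9.53 times that of DCK in the mutant libraries and 9.73 and 10.9 times in GFP.

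TYMS, thymidylate synthase, methylates dUMP to dTMP and is the target of fluorouracil. It read 433 and 422 CPM in R175H, 422 and 425 CPM in R248Q, 433 and 438 CPM in R273H, and 483 and 435 CPM in GFP. GFP replicate 1 again stood above the rest, and GFP replicate 2 was inside the range of the mutants. Its log2 fold changes of -0.1 ± 0.06, -0.12 ± 0.06 and -0.08 ± 0.06 (SE) in R175H, R248Q and R273H did not pass (lowest adjusted p = 0.23, edgeR). TYMS stood at -0.03, -0.04 and 0 without GFP replicate 1. Without GFP replicate 2 it stood at -0.18, -0.19 and -0.15.

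IMPDH1 and IMPDH2 are 2 forms of inosine monophosphate dehydrogenase, the rate-limiting step of guanine nucleotide synthesis, and GMPS makes GMP from its product. IMPDH1 read 136 and 135 CPM in R175H, 137 and 143 CPM in R248Q, 151 and 161 CPM in R273H, and 164 and 158 CPM in GFP. The R175H and R248Q libraries all lay below both GFP libraries, and those of R273H overlapped with GFP. IMPDH1 was lower in R175H with a log2 fold change of -0.25 ± 0.06 (SE, 95% interval -0.38 to -0.12, adjusted p = 0.016), or 0.841 times its GFP level. In R248Q it stood at -0.2 ± 0.06 (-0.33 to -0.08), just short of the threshold (adjusted p = 0.052, edgeR). The R248Q value passed with limma-voom, with no count filter and after the length correction (-0.18, adjusted p = 0.03), but not with DESeq2. Without GFP replicate 2, IMPDH1 was at -0.23 in R248Q. In R273H it stood at -0.05 ± 0.06 (adjusted p = 0.8).

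The IMPDH1 value in R175H stayed between -0.28 and -0.22 over 19 other ways of processing. The call was lost when only R175H and GFP entered the fit (adjusted p = 0.089, edgeR) and without either R175H replicate.

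IMPDH2 read 521 and 556 CPM in R175H, 475 and 471 CPM in R248Q, 494 and 494 CPM in R273H, and 536 and 481 CPM in GFP. The GFP libraries spanned much of this range. None of its log2 fold changes over GFP passed, at 0.08 ± 0.06 in R175H, -0.1 ± 0.06 in R248Q and -0.04 ± 0.06 in R273H (SE, lowest adjusted p = 0.31, edgeR). Without GFP replicate 1, the R175H value was 0.17 and passed (adjusted p = 0.0078), and after the length correction it was 0.12 and passed (adjusted p = 0.032). Without GFP replicate 2, IMPDH2 passed as lower in R248Q, at -0.18 (adjusted p = 0.00087), and the R175H value was 0.01. Without GFP replicate 1, 2 of 9 members passed in R175H, 1 in R248Q and 0 in R273H, beside 11.8%, 4.27% and 1.53% of genes. The 2 in R175H were IMPDH1, which was lower, and IMPDH2, which was higher.

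The ratio of IMPDH2 to IMPDH1, per length, was 6.73 and 7.2 in R175H, 6.09 and 5.78 in R248Q, 5.73 and 5.38 in R273H, and 5.72 and 5.34 in GFP. Both R175H libraries were above all others. The genes are close paralogs, and no source used here says how reads that match both were counted, which leaves their split uncertain.

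GMPS read 124 and 112 CPM in R175H, 118 and 109 CPM in R248Q, 114 and 119 CPM in R273H, and 125 and 118 CPM in GFP. The R175H and R273H libraries overlapped with GFP, and the higher R248Q library was level with the lower GFP one at 118 CPM. The log2 fold changes were -0.04, -0.09 and -0.06 in R175H, R248Q and R273H, each ± 0.07 (SE), and none passed (lowest adjusted p = 0.46, edgeR). After the length correction GMPS was -0.35 in R248Q (adjusted p = 0.003) and -0.25 over the mean of the 3 mutants (adjusted p = 0.0075). These values rest on the 8751-nt transcript and were -0.19 and -0.09 when GFP replicate 1 was also left out.

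RRM1 and RRM2 code for the large and the small subunit of ribonucleotide reductase. RRM1, the catalytic subunit, read 248.3 and 257.4 CPM in R175H, 253.4 and 246.2 CPM in R248Q, 245.3 and 250 CPM in R273H, and 261.2 and 255.2 CPM in GFP. It had the smallest ratio of highest to lowest library of the 9 members, and log2 fold changes of -0.03, -0.05 and -0.06 in R175H, R248Q and R273H. Their 95% intervals lay between -0.17 and 0.09 in all 3 comparisons.

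RRM2, the subunit that varies with the cell cycle, read 246 and 244 CPM in R175H, 264 and 262 CPM in R248Q, 278 and 271 CPM in R273H, and 278 and 269 CPM in GFP. The R175H libraries were the lowest 2 of the 8. The R175H log2 fold change over GFP was -0.16 ± 0.05 (SE, 95% interval -0.27 to -0.05, adjusted p = 0.069), which did not pass, while the R248Q and R273H values were -0.06 and 0.01. It passed in R175H in 4 of 19 alternatives, the length correction and scaling by library size alone among them. Without GFP replicate 2, RRM2 in R175H was at -0.18. Per length, the ratio of RRM2 to RRM1 was 0.887 and 0.849 in R175H, 0.934 and 0.954 in R248Q, 1.02 and 0.972 in R273H, and 0.953 and 0.945 in GFP, lowest in both R175H libraries.

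CAD is a single large protein that carries out the first 3 steps of pyrimidine synthesis. It read 374 and 376 CPM in R175H, 434 and 441 CPM in R248Q, 404 and 396 CPM in R273H, and 308 and 378 CPM in GFP. The mutant pairs were tight and the GFP pair was not. Each SE below pools the spread over all 4 groups, the tight mutant pairs among them. R248Q and R273H lay above both GFP libraries, and R175H lay between them. CAD was higher in R248Q by a log2 fold change of 0.35 ± 0.07 (SE, 95% interval 0.20 to 0.51, adjusted p = 0.007, edgeR), or 1.28-fold. It stood at 0.22 ± 0.07 in R273H (0.07 to 0.38, adjusted p = 0.19) and at 0.13 ± 0.07 in R175H (-0.02 to 0.29, adjusted p = 0.28), and passed in neither.

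Without GFP replicate 1, CAD was at 0.21 in R248Q, 0.08 in R273H and -0.01 in R175H. Without GFP replicate 2 it was at 0.51 in R248Q, 0.38 in R273H and 0.29 in R175H. After the length correction it was at 0.18 in R248Q (adjusted p = 0.0092, edgeR). With the correction and without GFP replicate 1 it was at 0.12 and did not pass. The R248Q call was also lost when only R248Q and GFP entered the fit (adjusted p = 0.058) and without either R248Q replicate.

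Transcript length moved with these values across all genes. Among the 1934 tested genes with transcripts of 5449 to 9081 nt, around that of CAD, the median log2 fold change was 0.09 in R175H, 0.15 in R248Q and 0.08 in R273H, and 14% passed as higher in R248Q. Between 1232 and 2054 nt, around IMPDH2, the medians of 2159 genes were -0.04, -0.09 and -0.05. The part of transcript length in the CAD difference was not tested beyond these settings.

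**Figure D3:**
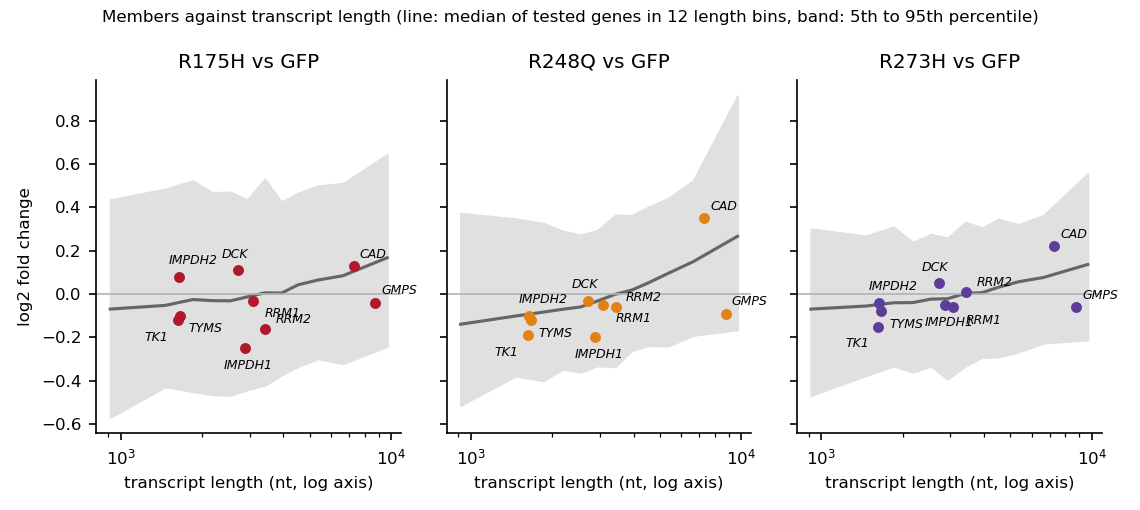
Log2 fold change over GFP (y axis) of the 9 members against transcript length in nt (log axis), with the median of all tested genes in 12 length bins as a line and their 5th to 95th percentile as a band. The line climbs with length, most in R248Q, and CAD at 7265 nt stands above it at 0.35 there, while GMPS at 8751 nt stands below it at -0.09.

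Averaged over the 3 mutants, CAD was higher than in GFP by 0.24 ± 0.06 (SE, log2, adjusted p = 0.024) and IMPDH1 was lower, at -0.17 ± 0.05 (adjusted p = 0.045, edgeR). The other 7 members did not pass. These 2 of 9 stood beside 8.26% of all tested genes (5.21% higher and 3.04% lower). CAD read 374 to 441 CPM in the 6 mutant libraries and 308 and 378 CPM in GFP, and IMPDH1 read 135 to 161 CPM in the mutants and 158 and 164 CPM in GFP. Mutant and GFP libraries overlapped for both genes. Leaving out any 1 library other than GFP replicate 2 ended both calls. Without GFP replicate 1, CAD was at 0.1 and IMPDH1 at -0.14, beside 4.36% of all genes called.

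Between the mutants, differences in IMPDH1, IMPDH2, RRM2 and CAD were small and their call depended on which libraries set the spread. With the spread pooled over all 8 libraries, the wide GFP pair among them, 0 of 9 members passed in R248Q against R175H, R273H against R175H or R273H against R248Q, beside 7.17%, 3.63% and 0.151% of all genes. DESeq2 and limma-voom also called 0. At an unadjusted p under 0.05, edgeR had 2 members in R248Q against R175H, 3 in R273H against R175H and 1 in R273H against R248Q. The largest interval bound was 0.38, 0.33 and 0.28 on the log2 scale.

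With only the 4 libraries of a pair in the fit, 2, 3 and 2 of the 9 members passed in these comparisons, beside 19.8%, 10.5% and 6.24% of all genes. CAD was higher in R248Q than in R175H by 0.22 (adjusted p = 1.8e-06, against 0.078 in the pooled fit). IMPDH2 in R248Q was at -0.19 against R175H (adjusted p = 2.2e-05, against 0.067 pooled). In R273H against R175H, IMPDH1 was at 0.2 (0.0075, against 0.081 pooled), RRM2 at 0.17 (0.011, against 0.11) and IMPDH2 at -0.13 (0.043, against 0.29).

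In R273H against R248Q, IMPDH1 was at 0.16 (adjusted p = 0.0075, against 0.49 pooled) and CAD at -0.13 (0.0024, against 0.7). The libraries of the mutants compared overlapped in none of these 7 differences. All lay within 0.22 of 0 on the log2 scale, which for CAD in R248Q over R175H is 1.17-fold.

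The other 56 genes listed for nucleotide metabolism, of which 52 were tested, moved little as groups. In R175H 1 was higher and 4 were lower, beside 11.0% of all tested genes called, and the median of the list was -0.02 on the log2 scale. In R248Q 0 passed, beside 6.32% of all genes, with a median of -0.05, and in R273H 0 passed, beside 1.01%, with a median of -0.02. The 5 of 52 in R175H are near the background share. For these counts of 0, DESeq2 and limma-voom also called 0, and at an unadjusted p under 0.05 edgeR had 3 higher and 9 lower in R248Q, and 2 higher and 0 lower in R273H. By role, 1 of 10 genes of purine synthesis, 1 of 4 of pyrimidine synthesis, 2 of 7 nucleotide kinases and 1 of 15 of breakdown passed in R175H. None of 5 further genes of deoxynucleotide supply, 8 of salvage or 3 nucleoside transporters passed against GFP.

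AK4, a mitochondrial adenylate kinase, had the largest change of the 52 in R175H. It read 31.6 and 27.1 CPM in R175H, 11.3 and 11.3 CPM in R248Q, 10.1 and 12.7 CPM in R273H, and 12.6 and 9.54 CPM in GFP. The R175H libraries stood apart from all others, and those of R248Q and R273H lay inside the range of GFP or beside it. AK4 rose in R175H by 1.39 ± 0.15 (SE, log2, adjusted p = 1.6e-05, edgeR), and passed under all 19 alternatives, whereas R248Q and R273H were at 0.02 and 0.04.

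PNP, which splits purine nucleosides, read 68.3 and 67.4 CPM in R175H, 83.3 and 78.7 CPM in R248Q, 88.9 and 86.7 CPM in R273H, and 90.9 and 87.4 CPM in GFP. Both R175H libraries were lowest. PNP fell in R175H, at a log2 fold change of -0.39 ± 0.07 (adjusted p = 0.0018, edgeR) and passed under all 19 alternatives. R248Q and R273H were at -0.14 and -0.02.

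CTPS1, which makes CTP from UTP, read 173 and 166 CPM in R175H, 171 and 170 CPM in R248Q, 178 and 178 CPM in R273H, and 191 and 194 CPM in GFP. All mutant libraries lay below both GFP libraries. It was lower in R175H, at -0.18 ± 0.06 (adjusted p = 0.045, edgeR) and stood at the same -0.18 in R248Q (adjusted p = 0.069).

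CMPK1, a kinase for CMP and UMP, was lower in R175H, at -0.21 ± 0.07 (adjusted p = 0.046), and ADSSL1, an adenylosuccinate synthase, was lower at -1.14 ± 0.32 (adjusted p = 0.032, edgeR). ADSSL1 was weakly expressed, at 1.48 and 1.91 CPM in R175H and 2.98 and 4.66 CPM in GFP. The R175H calls of CTPS1, CMPK1 and ADSSL1 were lost in 11, 12 and 9 of the 19 alternatives.

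Averaged over the 3 mutants, 2 of the 52 were higher and 2 lower, beside 8.26% of all genes. NT5C2, a cytosolic nucleotidase, was higher by 0.25 ± 0.06 (SE, log2, adjusted p = 0.026), and AK4 by 0.48 ± 0.13 (adjusted p = 0.033). PNP was lower at -0.18 ± 0.05 (adjusted p = 0.046) and CTPS1 at -0.16 ± 0.04 (adjusted p = 0.041, edgeR). These calls were lost in 7, 9, 13 and 9 of the 19 alternatives for NT5C2, AK4, PNP and CTPS1. Without GFP replicate 2, AK4 was at 0.3, and after the length correction PNP was at -0.12 (adjusted p = 0.13, edgeR).

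**Figure D4:**
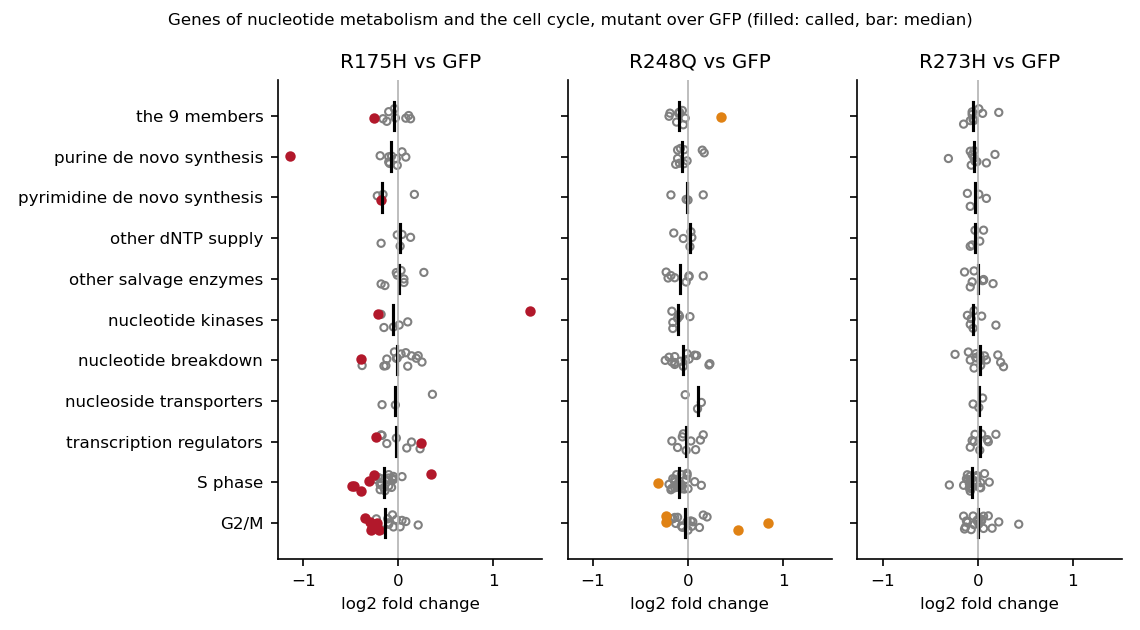
Log2 fold change over GFP (x axis) of the 9 members and of the tested genes of each list (rows), in R175H, R248Q and R273H, with filled points for genes that passed the test and a bar at the median of each list. AK4 stands alone at 1.39 among the nucleotide kinases in R175H, and every median lies within 0.17 of 0.

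Of 9 transcription regulators linked to these genes, 1 was higher and 1 lower in R175H, and 0 passed in R248Q or R273H, beside 11.0%, 6.32% and 1.01% of all genes. MYC, which drives nucleotide synthesis genes in many cells, read 556 and 545 CPM in R175H, 498 and 488 CPM in R248Q, 538 and 520 CPM in R273H, and 454 and 476 CPM in GFP. All mutant libraries lay above GFP. MYC rose in R175H by 0.24 ± 0.05 (adjusted p = 0.0071, edgeR), a call lost in 3 of 19 alternatives, while R248Q stood at 0.08 (adjusted p = 0.37) and R273H at 0.19 (adjusted p = 0.12). After the length correction MYC passed in both, at 0.19 in R248Q (adjusted p = 0.019, edgeR) and 0.24 in R273H (adjusted p = 0.006). Without GFP replicate 2 it was at 0.12 in R248Q and 0.22 in R273H. Over the mean of the 3 mutants MYC was higher by 0.17 ± 0.04 (adjusted p = 0.023, edgeR), a call lost in 7 of 19 alternatives.

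TFDP1, the partner of E2F factors, fell in R175H, at -0.23 ± 0.06 (adjusted p = 0.024, edgeR), a call lost in 10 of 19 alternatives. ETS2 read 34.2 and 40.8 CPM in R175H, 27.5 and 32.1 CPM in R248Q, 30.4 and 30.6 CPM in R273H, and 33.6 and 30.7 CPM in GFP. Both R175H libraries lay above GFP, those of R248Q overlapped with it and those of R273H lay just below it. Its log2 fold changes of 0.23 ± 0.11, -0.11 ± 0.11 and -0.08 ± 0.1 in R175H, R248Q and R273H did not pass (lowest adjusted p = 0.18, edgeR).

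In R175H a larger share of 2 cell cycle lists passed as lower than of all tested genes, though most of their genes did not pass. Of 24 S phase genes 1 was higher and 5 were lower there, with a median of -0.14, and of 20 G2/M genes 0 were higher and 7 lower, with a median of -0.14, beside 6.39% of all tested genes higher and 4.59% lower. In R248Q 0 S phase genes were higher and 1 was lower (median -0.09), and 2 G2/M genes were higher and 2 lower (median -0.04). These counts stood beside 4.88% of all genes higher and 1.44% lower. The 2 longest transcripts of the G2/M list, at 12678 and 10307 nt, had its largest rises over GFP in R248Q. The part of transcript length in those rises was not tested. In R273H none of either list passed, with medians of -0.06 and 0. The members tied to S phase, TK1, TYMS and RRM2, stood at -0.12, -0.1 and -0.16 in R175H without passing. The part of the cell cycle in these values was not tested.

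Over the 8 libraries, the genes whose log2 CPM most resembled that of CAD were PRPF8 (Pearson r = 0.998), GCN1L1 (0.995) and NYNRIN (0.994), among 9133 genes with a mean of at least 10 CPM. Their transcripts have 7445, 8675 and 7857 nt, near the 7265 nt of CAD, and 414 genes reached an r of 0.9 with it. For IMPDH1 they were ADI1 (0.986), ARF1 (0.976) and PRPF19 (0.976), and 104 genes reached 0.9. These values describe 8 libraries that share depth and length effects.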

How the data were processed

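The 8 mRNA libraries of HGC27 cells were made with a Roche Kapa mRNA Hyper kit, per the labels. The deposited values are whole-number read counts per gene. Per the submitters' processing notes, bcl2fastq, STAR 2.5 and hg19 were used. Which counting step, annotation and strand setting were used is not given in the sources used here. The table's 92 spike-in rows held 0 counts and were left out, and 0 columns were unused.

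Counts were fitted in R 4.3.3 with edgeR 4.0.16: filterByExpr (minimum count 10, total 15), TMM, and a quasi-likelihood F test with 1 mean per group on all 8 libraries (4 residual degrees of freedom), adjusted by Benjamini-Hochberg over 13213 genes. CPM values are TMM-normalised, intervals are 95%, and SE is the log2 fold change over the square root of F. Levels per kb used GENCODE 29 transcript lengths, matched by symbol for 97.3% of tested genes. Total counts of 6800463 to 11788035 put 3 counts at 0.254 to 0.441 CPM.

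The members, lists and alternatives were chosen with earlier results of these data known. Named were the members, up to 4 called genes of each other list by p (cell cycle lists are given as counts), and 3 genes most like each called member. ETS2 was named for its reported link to the members. Alternatives were other scalings and filters, limma-voom 3.58.1, DESeq2 1.42.0, fits of just the groups compared, each library left out, a replicate block, a correction for transcript length (loess, span 0.3) with and without GFP replicate 1, and a threshold of 0.01. Libraries were not paired in the main fit, since the labels do not say that equal replicate numbers mark a shared culture. Same-numbered libraries did not deviate together (correlations -0.09 to 0.05). Tested on simulated data of R175H against GFP with 13101 genes and 200 changed, the procedure recovered 86% of 2-fold and 75% of 1.5-fold changes, and 12 of 173 calls were false. The member changes against GFP were smaller, with CAD in R248Q the largest at 1.28-fold, and recovery at that size is not given. The check of the overexpressed gene is not reported here.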

Additional observations from a re-analysis of the deposited data

Results flagged for a closer look

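AK4 and PNP differed between the mutants themselves, by a test of that difference in the fit of all 8 libraries. AK4, at 11.3 and 11.3 CPM in R248Q, 10.1 and 12.7 CPM in R273H, and 31.6 and 27.1 CPM in R175H, was lower than in R175H, at -1.36 ± 0.14 in R248Q (SE, log2, adjusted p = 1.4e-05, edgeR) and at -1.35 ± 0.14 in R273H (adjusted p = 1.9e-05). Both differences passed under all 19 alternatives. PNP was higher than in R175H by 0.26 ± 0.07 in R248Q (adjusted p = 0.034) and by 0.37 ± 0.07 in R273H (adjusted p = 0.0049), calls that were lost in 9 and 4 of 19 alternatives.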

How the results depend on the processing

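No member or other named gene reversed a call. Of 1197 member values under the alternatives, 28 lost and 63 gained a call, and of 1197 values of other named genes 103 lost and 56 gained one. The members called changed as follows. With only the groups compared, 0 passed in R175H, 0 in R248Q, 2 in R248Q against R175H, 3 in R273H against R175H and 2 in R273H against R248Q. After the length correction, 3 passed in R175H, 3 in R248Q, 3 for the mean of the mutants (GMPS gained), 2 in R248Q against R175H and 2 in R273H against R175H. With no filter, 3 passed in R248Q, 1 in R273H, 3 for the mean (TK1 gained) and 2 in R248Q against R175H. Library size alone gave 2 in R175H, limma-voom 2 in R248Q and DESeq2 1 for the mean of the mutants. At a threshold of 0.01, 0 passed in R175H and 0 for the mean. Leaving out each library gave 0 to 5 in R175H, 0 to 5 in R248Q, 0 to 3 in R273H, 0 to 4 for the mean, and 0 to 2, 0 to 3 and 0 to 2 between the mutants. The highest counts against GFP came without GFP replicate 2, which leaves GFP replicate 1 as the control. With the replicate number as a block, 1 passed for the mean of the mutants, without IMPDH1, and the other member counts were unchanged. The libraries share only a number. Among fits with 2 libraries in each fitted group, calls over all genes ranged from 538 to 2180 in R175H and 344 to 1439 in R248Q. They ranged from 6 to 503 in R273H and from 356 to 1681 for the mean. The cause was not tested. With 2 libraries a group, the intervals of the members against GFP reached up to 0.51 on the log2 scale.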

Other observations

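GMPR2, a GMP reductase that returns GMP to the purine pool, was chosen after its values were seen. It read 61.6 and 60.7 CPM in R248Q and 72.2 and 75.6 CPM in R175H, a difference of -0.28 on the log2 scale (adjusted p = 0.048, edgeR). Its level in GFP was 72.4 and 61.8 CPM, spanning most of that range.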
